A study of Mus musculus with 12 samples.

Results

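The mRNA levels of 10 genes that sense, move and modify sterols were followed in mouse bone marrow-derived macrophages, over resting and inflammatory cells with and without an inhibitor of triacylglycerol synthesis. The genes were taken by name from the 47937 gene identifiers of the count table: the receptors Nr1h2 and Nr1h3, the transporters Abca1 and Abcg1, the lipoprotein genes Apoe and Pltp, the ubiquitin ligase Mylip, the phospholipid-modifying enzyme Lpcat3, and the oxysterol enzymes Ch25h and Cyp27a1. All 10 passed the filter on low counts, as did 11760 genes in all. Bone marrow cells of C57BL/6 mice, which the methods of the study give as 6 to 8 weeks old, were grown for 7 days in 20 ng/ml CSF-1. Cells of every group stayed in CSF-1 afterwards. M0 cells were left resting, and the IFNγ + LPS group received 50 ng/ml IFNγ and 20 ng/ml LPS for 18 h. The other groups received in addition 50 μM T863, a selective inhibitor of the triacylglycerol-forming enzyme DGAT1 (DGAT1i), without stimulation or together with IFNγ + LPS, for 18 h. Each group held 3 libraries. The descriptions of M0 with DGAT1i replicates 2 and 3 name the compounds T864 and T865 where the source name of these libraries says T863. Part of the results that rest on these libraries are also given without them. The single genes of the lists and the ratios between genes are given only with them. The labels do not say whether the libraries of a group came from separate mice or cultures, and the p-values then measure the spread between these libraries.

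Liver X receptors (LXRs) are nuclear receptors that bind oxysterols and desmosterol and work as partners of the retinoid X receptors. In macrophages loaded with cholesterol they switch on the genes for the pumps that hand cholesterol to lipoproteins, for apolipoprotein E, for phospholipid remodelling and for a ubiquitin ligase that limits lipoprotein uptake. Interferons and bacterial products are known to touch the same pathway, since Ch25h, which adds a hydroxyl group to the cholesterol side chain, is itself an interferon-stimulated gene, and toll-like receptor signals can interfere with LXR target genes.

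The libraries held 4996014 to 6621671 reads, so that 1 normalised count (CPM, after TMM scaling) stood for 4.28 to 7.58 reads. The activation genes Nos2, Acod1, Cxcl10 and Cd274 were higher in all IFNγ + LPS libraries than in all M0 libraries, with Nos2 at 23554 to 27393 reads against 0 reads in every M0 library. Dgat1 mRNA, whose product the inhibitor acts on, did not pass the test with DGAT1i in IFNγ + LPS (log2 fold change -0.01, adjusted p = 0.957) or in M0 (0.29, adjusted p = 0.107). All 7 macrophage markers had reads in all groups, and their summed level was 13000 to 14300 CPM in M0, 16000 to 18100 in M0 with DGAT1i, 7870 to 8440 in IFNγ + LPS and 7410 to 8340 in IFNγ + LPS with DGAT1i. Most of this sum in M0 was Lyz2, which averaged 9641 CPM there, 13045 CPM in M0 with DGAT1i and 2956 CPM after IFNγ + LPS. With IFNγ + LPS 5 of the 7 were lower and 2 higher, namely Adgre1 (2.06-fold) and Fcgr1 (9.40-fold), beside 36.2% and 37.1% of all genes tested. The erythroid and mast cell markers were at 0 in all 12 libraries, and the B cell, dendritic cell and fibroblast lists each summed to at most 2.11 CPM and the T and NK cell list to at most 5.39 CPM.

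Start sites and the sequence around them are shown for 4 genes whose levels moved in different ways: Ch25h and Nr1h3, which rose with IFNγ + LPS and fell with DGAT1i in stimulated cells, and Abca1 and Mylip, which did not share that pattern. The sequences are RefSeq promoters on GRCm38.p6, from 250 bases before to 50 bases after the start site, read 5′ to 3′ on the strand of the gene: Abca1 at chr4:53159846-53160145 (minus strand), Mylip at chr13:45389492-45389791 (plus strand), Ch25h at chr19:34475099-34475398 (minus strand) and Nr1h3, the first of 2 start sites, at chr2:91195067-91195366 (minus strand). Capitals mark the SP1 motif GGGCGG and the TATA box TATAAA.
Abca1: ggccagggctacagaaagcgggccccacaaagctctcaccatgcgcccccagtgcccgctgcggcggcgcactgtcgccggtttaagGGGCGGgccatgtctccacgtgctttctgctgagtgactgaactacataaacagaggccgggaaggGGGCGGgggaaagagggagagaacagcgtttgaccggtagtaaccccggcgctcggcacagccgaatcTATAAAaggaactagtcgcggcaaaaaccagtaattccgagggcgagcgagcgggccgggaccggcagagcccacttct
Mylip: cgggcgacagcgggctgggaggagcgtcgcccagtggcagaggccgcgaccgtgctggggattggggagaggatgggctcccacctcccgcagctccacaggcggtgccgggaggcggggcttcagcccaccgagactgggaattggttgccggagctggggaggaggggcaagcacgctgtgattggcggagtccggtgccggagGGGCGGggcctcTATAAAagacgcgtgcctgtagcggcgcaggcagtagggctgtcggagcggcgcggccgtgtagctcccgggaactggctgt
Ch25h: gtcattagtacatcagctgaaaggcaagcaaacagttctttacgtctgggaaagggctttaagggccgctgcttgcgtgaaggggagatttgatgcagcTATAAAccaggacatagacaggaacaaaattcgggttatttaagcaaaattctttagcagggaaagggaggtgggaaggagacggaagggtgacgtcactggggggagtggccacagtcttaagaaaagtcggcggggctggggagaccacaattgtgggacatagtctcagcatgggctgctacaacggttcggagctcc
Nr1h3: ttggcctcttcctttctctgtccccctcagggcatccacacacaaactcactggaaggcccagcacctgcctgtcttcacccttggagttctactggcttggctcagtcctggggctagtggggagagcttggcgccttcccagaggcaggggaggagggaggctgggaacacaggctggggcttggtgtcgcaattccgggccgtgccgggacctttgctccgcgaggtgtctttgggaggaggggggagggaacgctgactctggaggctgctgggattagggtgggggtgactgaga
With the start site counted as 0, the TATAAA of Abca1 began at -29 and that of Mylip at -32, while that of Ch25h lay farther out, at -151. Abca1 held GGGCGG at -163 and -97, and Mylip held it at -44. Neither promoter of Nr1h3 held any of the letters searched. Both windows lie inside the annotated gene, which begins at chr2:91202834 on the minus strand, and the sequence around that start was not searched.

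Promoters could be matched for 9 of the 10 genes, with 12 start sites between them. On either strand, 5 of the 12 promoters held GGGCGG (1 each of Abca1, Pltp, Mylip, Lpcat3 and Cyp27a1), which 35.7% of 32841 promoters hold. TATAAA was in 5 of the 12 (1 each of Abca1, Apoe, Pltp, Mylip and Ch25h), against 13.6% of all promoters, but the match of Pltp lay after the start site, at 36, and those of Apoe at -96 and -100. The TATA box was added to the search after the sequences had been read. None of the 12 windows held the nuclear receptor motif AGGTCA (16.3% of promoters) or matched the pattern searched for the DR4 element (0.0822%). LXR and its partner bind to DR4 elements. The search used a strict pattern, and elements that depart from it were not looked for. It therefore does not show that the windows, that of Abca1 among them, lack an element bound by LXR. The DR4 pattern is made of variants of AGGTCA, so that both searches can match the same bases. The gamma-activated sequence TTCNNNGAA (8.3%), the interferon-stimulated response element (3.44%) and the NF-kB motif (1.47%) had no match in the 12 windows either.

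**Figure D1:**
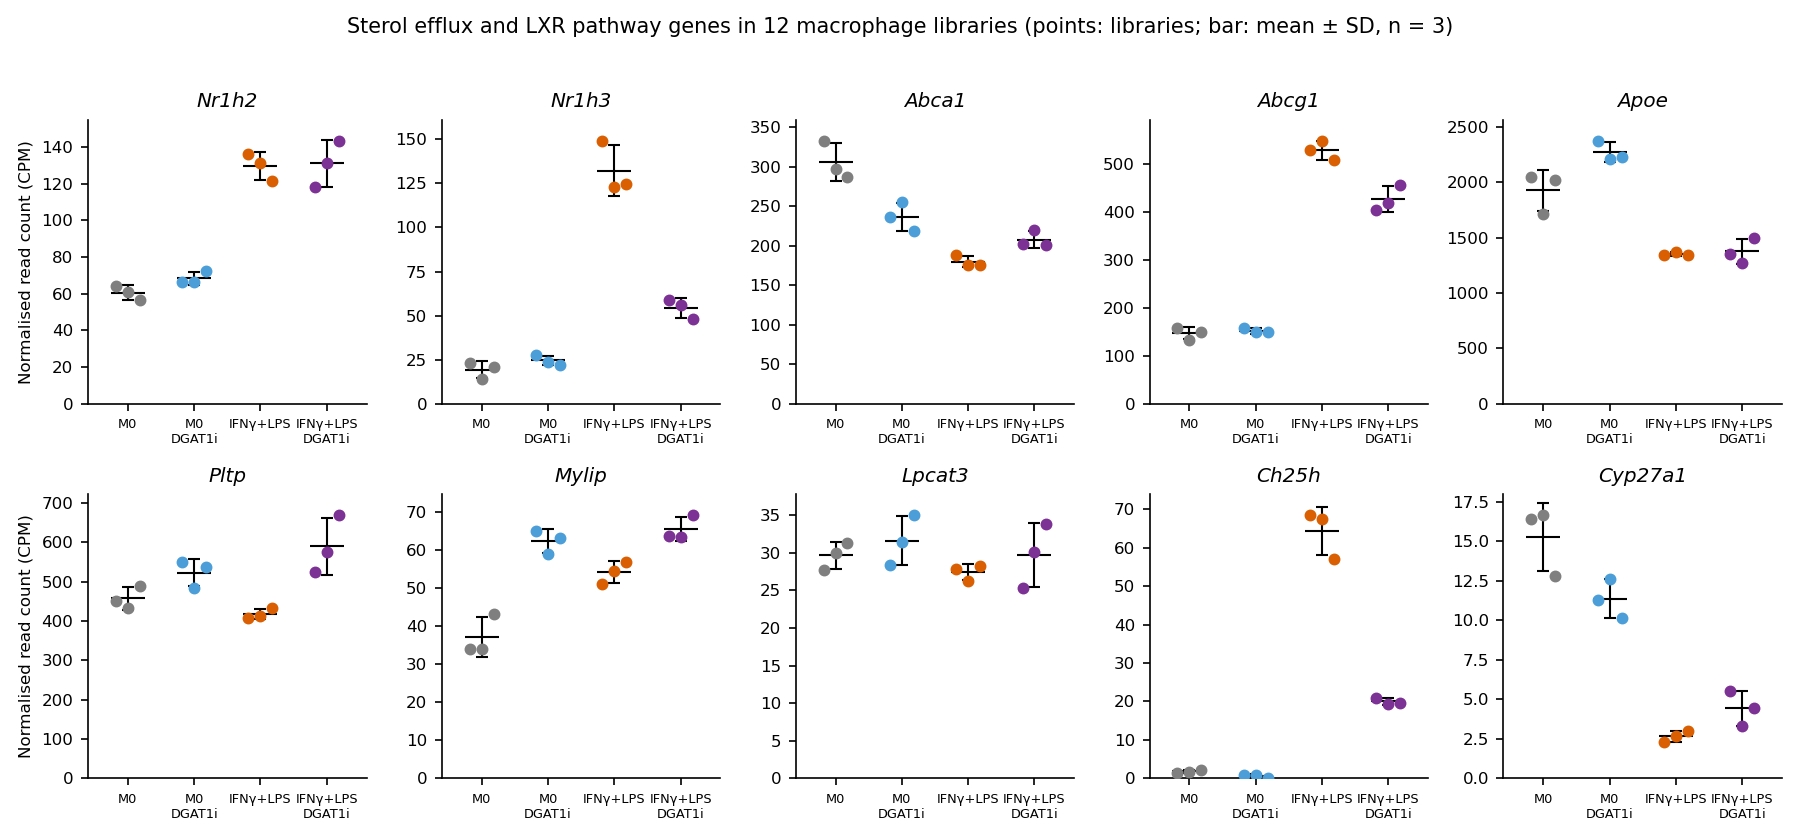
Normalised read count (CPM, vertical axis from 0) of the 10 genes in the 12 libraries. Each point is a library and the bars give the mean ± SD of the 3 libraries of a group. Ch25h and Nr1h3 were highest in the 3 IFNγ + LPS libraries and fell to 20.0 and 54.3 CPM with DGAT1i, while the points of Lpcat3 overlapped between groups.

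The comparison of IFNγ + LPS with M0 asked how inflammatory activation moved these genes in the absence of the inhibitor. Of the 10 genes, 5 were higher (Ch25h, Nr1h3, Abcg1, Nr1h2 and Mylip) and 3 lower (Cyp27a1, Abca1 and Apoe) by edgeR's quasi-likelihood test at an adjusted p under 0.05. This was a comparison in which 73.3% of all genes tested were called, 37.1% as higher and 36.2% as lower. The libraries of the groups did not overlap for 9 of the 10 genes, against 75.4% of all genes tested. The data are from bulk cultures, in which fewer cells carrying an mRNA and less mRNA per cell cannot be told apart. Of the 8 neutrophil markers 4 could be tested, and Ngp (-2.60) and Ltf (-2.93) fell, with the sum of the 8 at 31.6 to 38.7 CPM in M0 and 15.2 to 25.5 CPM in IFNγ + LPS. Their part in the results was not tested.

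Both LXR genes rose. Nr1h3, which encodes LXRα (ENSMUSG00000002108.10, chr2:91184061-91202834 on GRCm38, minus strand, 9 exon blocks), was at 23.3, 13.7 and 20.8 CPM in M0 and at 149, 123 and 125 CPM in IFNγ + LPS. The lowest stimulated library was above every M0 library by several fold, and the fold change was 6.89 (log2 2.79 ± 0.14, SE, n = 3 and 3, adjusted p = 1.82e-11). Nr1h2, which encodes LXRβ (ENSMUSG00000060601.13, chr7:44549616-44553951, minus strand), went from 64.2, 61.0 and 56.4 CPM to 136, 131 and 121 CPM. Its groups were also apart, with a 2.14-fold rise (log2 1.10 ± 0.07, adjusted p = 9.98e-21).

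The cholesterol pumps went in opposite directions. Abcg1, the pump that loads cholesterol onto high-density lipoprotein (ENSMUSG00000024030.6, chr17:31057675-31117988, plus strand, 16 exon blocks), rose from 159, 134 and 150 CPM to 528.5, 549 and 508 CPM. That is 3.58-fold (log2 1.84 ± 0.06, adjusted p = 6.53e-35), and every stimulated library was above every M0 library. Abca1, the pump that passes cholesterol and phospholipid to lipid-poor apolipoproteins (ENSMUSG00000015243.4, chr4:53030787-53159895, minus strand, 50 exon blocks), was at 333, 297 and 287.5 CPM in M0 and at 188, 176 and 175.5 CPM in IFNγ + LPS. Here every stimulated library was below every M0 library, and Abca1 was 1.70-fold lower (log2 -0.77 ± 0.06, adjusted p = 4.40e-17).

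Apoe, the gene for the apolipoprotein that macrophages secrete as a cholesterol acceptor (ENSMUSG00000002985.16, chr7:19696109-19699188, minus strand), fell from 2051, 1716 and 2022 CPM to 1341, 1375 and 1345 CPM. The groups did not overlap, the M0 libraries spread more widely than the stimulated ones, and Apoe was 1.43-fold lower (log2 -0.51 ± 0.06, adjusted p = 1.23e-10). Pltp, the gene for a plasma protein that exchanges phospholipids between lipoproteins (ENSMUSG00000017754.13, chr2:164839518-164857711, minus strand), was at 452, 433 and 490 CPM in M0 and at 407, 413 and 432.5 CPM in IFNγ + LPS. The stimulated libraries lay just below the M0 libraries, and the difference did not pass the test (log2 -0.13, 95% interval -0.28 to 0.0087, adjusted p = 0.0848). It passed without M0 replicate 2 (-0.17, adjusted p = 0.0469) and without IFNγ + LPS with DGAT1i replicate 1 or 3 (-0.13 in both, adjusted p = 0.0353 and 0.0343). It also passed with no filter on low counts (-0.15, adjusted p = 0.0227), with only the 6 libraries compared (-0.15, adjusted p = 0.00807), without the libraries described with another compound number (-0.16, adjusted p = 0.0333), with the replicate block (-0.13, adjusted p = 0.0229) and with totals alone (-0.60, adjusted p = 2.80e-07). Pltp shares 495 exon bases, 19.3% of its own, with Ctsa on the opposite strand. The sources differ on whether the libraries kept the strand, and Ctsa fell by 0.34 on the log2 scale in the same comparison.

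Mylip, the gene for a ubiquitin ligase that limits lipoprotein uptake (ENSMUSG00000038175.9, chr13:45389742-45412022, plus strand), went from 34.0, 34.1 and 43.3 CPM to 51.2, 54.4 and 56.95 CPM. The lowest stimulated library stood above the highest M0 library, a 1.46-fold rise under TMM scaling (log2 0.55 ± 0.09, adjusted p = 1.74e-07) that was 0.08 (adjusted p = 0.423) when libraries were scaled by their totals alone. Lpcat3, which puts polyunsaturated chains into membrane phospholipids (ENSMUSG00000004270.13, chr6:124663027-124704418, plus strand), had 27.8, 30.0 and 31.3 CPM in M0 and 27.8, 26.3 and 28.3 CPM in IFNγ + LPS. These groups overlapped (log2 -0.11, 95% interval -0.33 to 0.10, adjusted p = 0.332). Lpcat3 shares 334 exon bases (10.2%) with Emg1 on the opposite strand, and Emg1 fell by 0.45. On the scale of library totals the typical gene lay lower (median over all genes of -0.46 in place of 0.01), and there Lpcat3 (-0.58) and Pltp (-0.60) were called lower.

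The oxysterol enzymes moved in opposite directions. Ch25h (ENSMUSG00000050370.4, chr19:34473778-34475164, minus strand), a gene of 1 exon, rose from 10, 13 and 16 reads in M0 (1.45, 1.73 and 2.23 CPM) to 325, 375 and 305 reads in IFNγ + LPS (68.4, 67.5 and 57.1 CPM). That was the largest change among the 10 genes, 35.2-fold (log2 5.14 ± 0.16, adjusted p = 5.24e-35). Cyp27a1, a mitochondrial enzyme that hydroxylates the sterol side chain (ENSMUSG00000026170.6, chr1:74713574-74737892, plus strand), fell from 16.4, 16.7 and 12.8 CPM to 2.32, 2.70 and 3.00 CPM, the latter resting on 11, 15 and 16 reads. It was 5.66-fold lower (log2 -2.50 ± 0.21, adjusted p = 9.54e-16) and no library of the groups overlapped. An antisense transcript, Gm26902, shares 159 exon bases (11.5%) with Ch25h and had 0 to 33 reads in a library, with a mean of 0.141 CPM in M0 and 4.92 CPM in IFNγ + LPS.

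**Figure D2:**
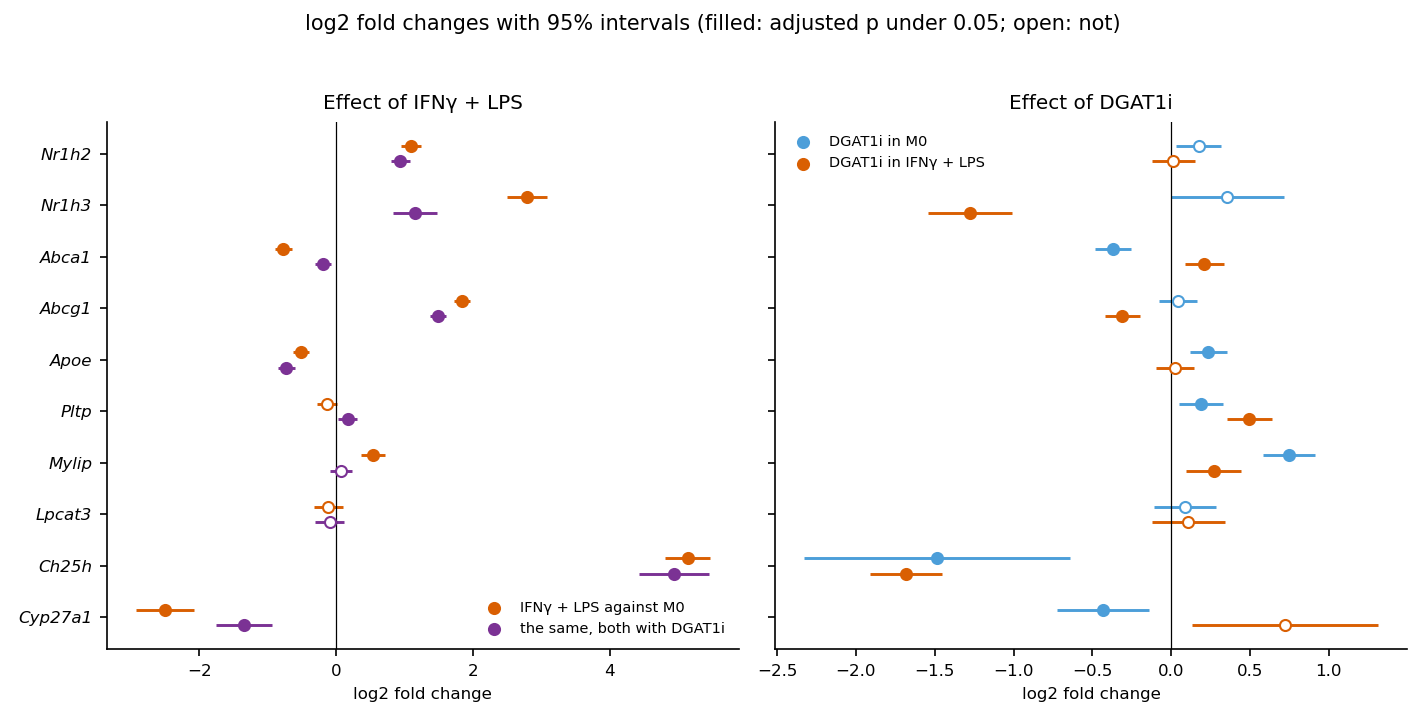
log2 fold changes (horizontal axis) of the 10 genes with 95% intervals, for the effect of IFNγ + LPS without and with DGAT1i (left) and for the effect of DGAT1i in M0 and in IFNγ + LPS (right); filled points passed the test at an adjusted p under 0.05. Ch25h lies at 5.14 and 4.94 on the left and at -1.49 and -1.68 on the right, and Nr1h3 and Abca1 lie on opposite sides of 0 in the right panel.

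The comparison of IFNγ + LPS with and without DGAT1i asked how blocking triacylglycerol synthesis changed the genes in inflammatory cells. It uses the same IFNγ + LPS libraries as the comparison above. Ch25h, Nr1h3 and Abcg1 were lower with DGAT1i, Pltp, Mylip and Abca1 were higher, and Cyp27a1, Lpcat3, Apoe and Nr1h2 did not pass. These 6 of 10 stand beside 29.8% of all genes tested, with 13.5% called higher and 16.3% lower. The libraries did not overlap for 7 of the 10 genes, against 39.7% of all genes tested. Of the 7 macrophage markers Itgam (-0.60), Adgre1 (-0.36) and Fcgr1 (-0.27) were lower here and Cd68 (0.48) higher, and their part in the results was not tested.

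Ch25h had the largest response. Its level was 21, 19.4 and 19.6 CPM in IFNγ + LPS with DGAT1i (102, 93 and 84 reads) against 68.4, 67.5 and 57.1 CPM without. The highest library with DGAT1i was far below the lowest without it, and Ch25h was 3.21-fold lower (log2 -1.68 ± 0.11, adjusted p = 3.42e-18). In 0.867% of all genes tested the log2 fold change was lower than this. Gm26902, the antisense neighbour, went from a mean of 4.92 to 3.17 CPM and did not pass (adjusted p = 0.134).

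Nr1h3 was the other gene that fell by more than 2-fold. It was at 58.9, 56.1 and 47.9 CPM with DGAT1i against 149, 123 and 125 CPM without, so that all libraries with DGAT1i were below all libraries without it. The decrease was 2.42-fold (log2 -1.28 ± 0.12, adjusted p = 1.06e-06). Nr1h2 was at 118, 131 and 143 CPM with DGAT1i, overlapping the 136, 131 and 121 CPM without it (log2 0.01, 95% interval -0.12 to 0.15, adjusted p = 0.907). The 95% interval of the Nr1h3 change, from -1.54 to -1.01, does not meet that of Nr1h2.

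For the pumps, Abcg1 was at 404, 419 and 457 CPM with DGAT1i, each below the 508 to 549 CPM of the stimulated libraries without it. It was 1.24-fold lower (log2 -0.31 ± 0.06, adjusted p = 1.13e-05). Abca1 was at 202, 220 and 201 CPM, each above the 175.5 to 188 CPM without DGAT1i. Its 1.16-fold rise (log2 0.21 ± 0.06, adjusted p = 0.00737) was smaller, and without IFNγ + LPS with DGAT1i replicate 2 it was 0.16 with an adjusted p of 0.0826.

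Pltp rose from 407 to 432.5 CPM in the libraries without DGAT1i to 525, 575 and 669 CPM with it. This was the largest rise that passed the test, 1.41-fold (log2 0.50 ± 0.07, adjusted p = 4.11e-06), while its neighbour Ctsa did not pass (log2 0.08, adjusted p = 0.230). Mylip was at 63.8, 63.4 and 69.1 CPM against 51.2, 54.4 and 56.95 CPM, a 1.21-fold rise without overlap (log2 0.27 ± 0.09, adjusted p = 0.0127). The Mylip call was lost without IFNγ + LPS replicate 1 (log2 0.23, adjusted p = 0.0681), without IFNγ + LPS with DGAT1i replicate 3 (0.23, adjusted p = 0.0757) and with DESeq2 (0.26, adjusted p = 0.0609).

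Cyp27a1 had 27, 16 and 19 reads with DGAT1i (5.56, 3.34 and 4.44 CPM) against 11, 15 and 16 reads without (2.32, 2.70 and 3.00 CPM). The groups did not overlap, but at these counts the difference missed the threshold (log2 0.72, 95% interval 0.13 to 1.31, adjusted p = 0.0557); without IFNγ + LPS with DGAT1i replicate 2 it was 0.90 with an adjusted p of 0.0302. Apoe was at 1357, 1275 and 1498 CPM against 1341 to 1375 CPM (log2 0.02, 95% interval -0.09 to 0.14, adjusted p = 0.806), and the groups overlapped. Lpcat3 was at 25.3, 30.0 and 33.9 CPM and also overlapped (log2 0.11, 95% interval -0.12 to 0.34, adjusted p = 0.516). Neutrophil markers moved in this comparison: S100a8, S100a9, Ngp and Ltf, the 4 of 8 markers that could be tested, all rose, and the summed level of the 8 went from between 15.2 and 25.5 CPM to between 63.0 and 81.0 CPM. Ly6g was at 0 in all 12 libraries and Elane at 0 in all stimulated libraries, and the part of these markers in the results above was not tested.

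In resting cells, DGAT1i was compared with M0 to ask what the inhibitor did without activation. Mylip, Apoe and Pltp were higher and Ch25h, Cyp27a1 and Abca1 lower, 6 of 10 genes against 24.4% of all genes tested, of which 11% were higher and 13.4% lower. The libraries of the groups did not overlap for 6 of the 10 genes, against 37.8% of all genes tested. Without M0 replicate 2, without M0 with DGAT1i replicate 3, or without the libraries described with another compound number, 3 genes were called.

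Mylip gave the clearest change. It was at 65.1, 58.9 and 63.1 CPM with DGAT1i against 34.0, 34.1 and 43.3 CPM in M0. The groups were well apart, and Mylip was 1.68-fold higher (log2 0.75 ± 0.08, adjusted p = 6.82e-11), with 98.1% of all genes tested having a lower log2 fold change. Abca1 was at 236, 255 and 219 CPM against 287.5 to 333 CPM, 1.29-fold lower without overlap (log2 -0.37 ± 0.06, adjusted p = 6.57e-07). The Mylip and Abca1 calls held in every refit that left out a library, and without both libraries described with another compound number Mylip was at 0.79 (adjusted p = 1.49e-07) and Abca1 at -0.39 (adjusted p = 0.000293).

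The other calls in resting cells rested on smaller or thinner differences. Apoe was at 2378, 2214 and 2226 CPM against 2051, 1716 and 2022 CPM, 1.18-fold higher (log2 0.24 ± 0.06, adjusted p = 0.00161), and without M0 replicate 2, its lowest library, the difference was 0.16 (adjusted p = 0.0505). Ch25h had 7, 6 and 1 reads with DGAT1i against 10, 13 and 16 reads in M0. It was 2.80-fold lower (log2 -1.49 ± 0.42, adjusted p = 0.00569), and without M0 with DGAT1i replicate 3, the library with 1 read, it was -1.003 (adjusted p = 0.0826). Without both libraries described with another compound number, Apoe was at 0.28 (adjusted p = 0.0123) and Ch25h at -0.96 (adjusted p = 0.269). In the same refit Cyp27a1 was at -0.45 (adjusted p = 0.165) and Pltp at 0.24 (adjusted p = 0.0714).

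Cyp27a1 was at 11.3, 12.6 and 10.2 CPM with DGAT1i against 16.4, 16.7 and 12.8 CPM, with its highest treated library just under the lowest M0 library. It was 1.35-fold lower (log2 -0.43 ± 0.15, adjusted p = 0.0225). The call was lost with DESeq2 (adjusted p = 0.159) and on leaving out M0 replicate 1 or 2 or M0 with DGAT1i replicate 1 or 3, with log2 fold changes from -0.43 to -0.36 and adjusted p from 0.0599 to 0.121. Pltp was at 549, 484 and 536 CPM against 452, 433 and 490 CPM, and the groups overlapped (log2 0.19 ± 0.07, adjusted p = 0.0416). The Pltp call was lost in 8 of the 12 refits that left out a library (any of the 3 IFNγ + LPS libraries, M0 replicate 1 or 2, M0 with DGAT1i replicate 1 or 3, or IFNγ + LPS with DGAT1i replicate 2), with log2 fold changes from 0.15 to 0.19 and adjusted p from 0.0531 to 0.185. It was also lost with RLE size factors (0.17, adjusted p = 0.0720), with DESeq2 (0.17, adjusted p = 0.0950) and with totals alone (0.13, adjusted p = 0.204).

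The remaining genes did not pass in resting cells. Nr1h2 was at 66.3, 66.3 and 72.2 CPM with DGAT1i, just above the 56.4 to 64.2 CPM of M0 (log2 0.17, 95% interval 0.03 to 0.32, adjusted p = 0.0729), and passed with only the 6 libraries compared (0.18, adjusted p = 0.0479). Nr1h3 was at 27.6, 23.7 and 22.2 CPM against 23.3, 13.7 and 20.8 CPM, with overlap (log2 0.36, 95% interval -0.0014 to 0.72, adjusted p = 0.148), and without M0 replicate 1 it was 0.51 (adjusted p = 0.0236). With no filter on low counts it passed at 0.36 (adjusted p = 0.00879), and with the replicate block at 0.35 (adjusted p = 0.0104). Abcg1 was at 158, 148.5 and 149 CPM, within the 134 to 159 CPM of M0 (log2 0.04, 95% interval -0.08 to 0.16, adjusted p = 0.675). Lpcat3, at 28.4, 31.4 and 35.0 CPM, likewise overlapped M0 (log2 0.09, 95% interval -0.11 to 0.29, adjusted p = 0.565). Neutrophil markers summed to 22.9 to 29.0 CPM with DGAT1i and 31.6 to 38.7 CPM in M0, and none of the 4 tested passed.

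The inhibitor responses in the 2 states were then set against each other in the same model, as the log2 response in IFNγ + LPS minus that in M0. Of the 10 genes, 6 differed, against 18.5% of all genes tested (8.66% higher and 9.8% lower). Nr1h3 had the largest difference, with 0.36 in M0 and -1.28 in IFNγ + LPS (difference -1.63 ± 0.21, adjusted p = 4.49e-05). Abca1 turned from -0.37 in M0 to 0.21 in IFNγ + LPS (difference 0.58 ± 0.08, adjusted p = 5.06e-07). Its libraries with DGAT1i all lay below those without it in M0 and all above them in IFNγ + LPS. Abcg1 was at 0.04 in M0 and -0.31 in IFNγ + LPS (difference -0.35 ± 0.08, adjusted p = 0.00102), and the rise of Mylip was smaller in IFNγ + LPS than in M0 (-0.48 ± 0.12, adjusted p = 0.00210).

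Cyp27a1 went from -0.43 in M0 to 0.72 in IFNγ + LPS (difference 1.16 ± 0.33, adjusted p = 0.00809), and without IFNγ + LPS with DGAT1i replicate 1 this was 0.95 (adjusted p = 0.0638). Pltp rose more in IFNγ + LPS (0.31 ± 0.10, adjusted p = 0.0287), a call that was lost on leaving out any of M0 replicates 1 and 3, IFNγ + LPS replicates 1 and 2, M0 with DGAT1i replicate 2 and IFNγ + LPS with DGAT1i replicate 3 (0.20 to 0.31, adjusted p 0.0511 to 0.101). Ch25h was at -1.49 in M0 and -1.68 in IFNγ + LPS, and the few reads in resting cells leave a wide interval (difference -0.20, 95% interval -1.31 to 0.92, adjusted p = 0.855). Apoe (-0.21, 95% interval -0.38 to -0.05, adjusted p = 0.0671) missed the threshold. It passed without M0 replicate 1 (-0.26, adjusted p = 0.0368) and without M0 replicate 3 (-0.25, adjusted p = 0.0367). It also passed without IFNγ + LPS with DGAT1i replicate 3 (-0.28, adjusted p = 0.0152), with no filter on low counts (-0.25, adjusted p = 0.0172) and with the replicate block (-0.22, adjusted p = 0.0309). Nr1h2 (-0.16, 95% interval -0.36 to 0.04) and Lpcat3 (0.02, 95% interval -0.28 to 0.32) did not pass either. Without the libraries described with another compound number, the differences of Nr1h3 (-1.77), Abca1 (0.62), Abcg1 (-0.37), Mylip (-0.50) and Cyp27a1 (1.20) still passed and that of Pltp (0.27, adjusted p = 0.124) did not.

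Seen from the other side, IFNγ + LPS was compared with M0 where both had DGAT1i. Here 5 genes were higher and 3 lower, in a comparison in which 70.6% of all genes tested were called, 35.3% in each direction. The groups did not overlap for 6 of the 10, against 72.5% of all genes tested. Of the 4 neutrophil markers tested S100a8, S100a9 and Ngp rose, with the sum of the 8 markers at 22.9 to 29.0 CPM in M0 with DGAT1i and 63.0 to 81.0 CPM in IFNγ + LPS with DGAT1i, and their part in the results was not tested. Ch25h rose 30.7-fold (log2 4.94 ± 0.25), from 1 to 7 reads to 84 to 102 reads per library. Abcg1 rose 2.81-fold, Nr1h2 1.91-fold and Nr1h3 2.22-fold, the last against 6.89-fold without the inhibitor. Cyp27a1 was 2.54-fold lower and Apoe 1.65-fold lower. Abca1 was 1.14-fold lower (log2 -0.19, adjusted p = 0.00471) with overlapping groups, and without M0 with DGAT1i replicate 2 it was -0.13 (adjusted p = 0.0741). Without both libraries described with another compound number Abca1 was at -0.17 (adjusted p = 0.0682) and Ch25h at 4.41.

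Under the inhibitor Mylip did not pass (log2 0.07, 95% interval -0.09 to 0.23, adjusted p = 0.465), nor did Lpcat3 (-0.09, 95% interval -0.31 to 0.12, adjusted p = 0.438). Pltp was called higher by 0.17 (adjusted p = 0.0287) with overlap. That Pltp call was lost without IFNγ + LPS replicate 2 (0.17, adjusted p = 0.0512), without M0 with DGAT1i replicate 2 (0.12, adjusted p = 0.135) and without IFNγ + LPS with DGAT1i replicate 3 (0.07, adjusted p = 0.293). It was also lost without both libraries described with another compound number (0.12, adjusted p = 0.283), with DESeq2 (0.16, adjusted p = 0.0511), with no filter on low counts (0.12, adjusted p = 0.0853) and with only the 6 libraries compared (0.17, adjusted p = 0.0561). When libraries were scaled by their totals alone, Pltp (-0.25), Mylip (-0.35) and Lpcat3 (-0.51) were called lower instead.

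**Figure D3:**
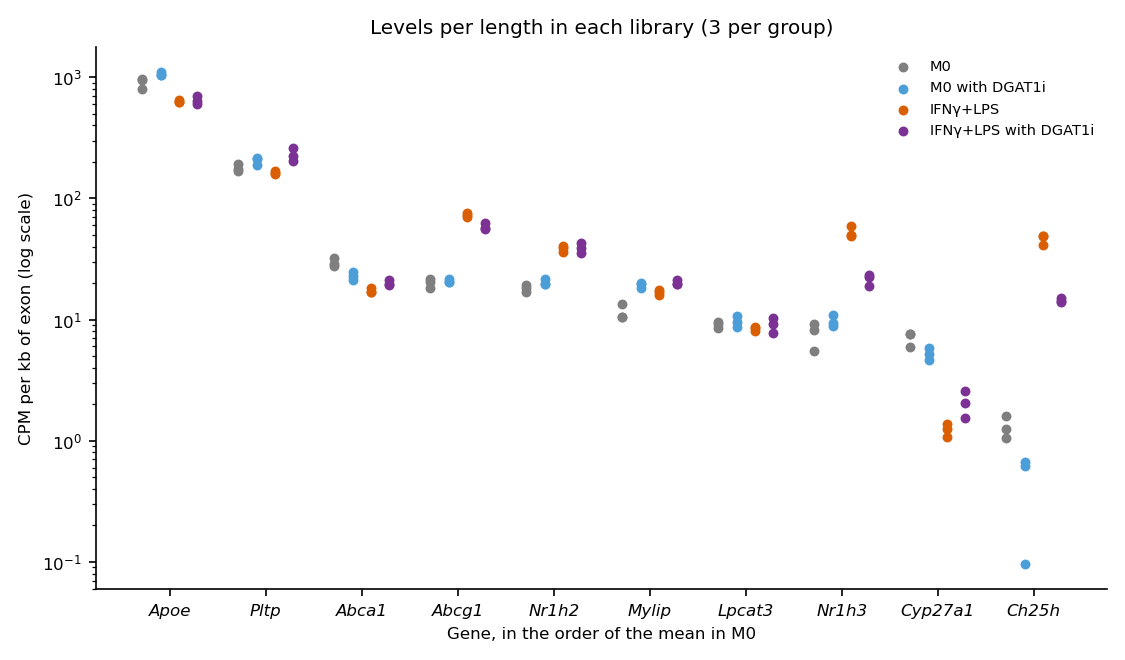
Levels per length (CPM per kb of annotated exon, log scale on the vertical axis) of the 10 genes in each of the 12 libraries, ordered by the mean in M0. Apoe stood highest in all groups, and Ch25h moved from the lowest place in M0, at 1.30 CPM per kb, to 46.4 CPM per kb in IFNγ + LPS.

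Levels of different genes were compared after division by the exon length of the annotation. In M0, Apoe was highest at 903 ± 87.0 CPM per kb (SD, n = 3), followed by Pltp at 179 ± 11.4 and Abca1 at 29.5 ± 2.31. Abcg1 (20.2) and Nr1h2 (18.05) overlapped each other in this order, Mylip (11.5) stood alone, Lpcat3 (9.08), Nr1h3 (7.65) and Cyp27a1 (7.04) overlapped their neighbours, and Ch25h was last at 1.30 CPM per kb. In IFNγ + LPS, Apoe (633) and Pltp (163) kept the leading places, Abcg1 (72.4) came next, and Nr1h3 (52.6) and Ch25h (46.4) overlapped, followed by Nr1h2 (38.6). Abca1 (17.3) and Mylip (16.8) overlapped, then came Lpcat3 (8.40) and last Cyp27a1 (1.23). This order holds for the summed exon length: with the longest transcript Nr1h2 (30.3) stood above Abca1 (29.8) and Lpcat3 (12.5) above Mylip (12.1) in M0, and in IFNγ + LPS Nr1h2 (64.8) stood above Ch25h (46.4) and Mylip (17.7) above Abca1 (17.5).

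The ratio within pairs of like function shifted with activation. Nr1h3 stood at 0.424 ± 0.108 of Nr1h2 per length in M0, at 1.36 ± 0.11 in IFNγ + LPS, at 0.481 ± 0.073 in M0 with DGAT1i and at 0.560 ± 0.110 in IFNγ + LPS with DGAT1i. With the longest transcript as the length, the IFNγ + LPS ratio averaged 1.03, near equal levels of both receptors, so that no order of the receptors there is read from these libraries. Abca1 stood at 1.46 ± 0.11 of Abcg1 in M0 and at 0.240 ± 0.013 in IFNγ + LPS, with 1.10 ± 0.10 and 0.344 ± 0.031 under DGAT1i. With the longest transcript the ratio in M0 with DGAT1i was 0.887, so that the order of the pumps there turns on the length. For the oxysterol enzymes the ratio of Ch25h to Cyp27a1 went from 0.191 ± 0.071 in M0 to 38.4 ± 8.24 in IFNγ + LPS, and under DGAT1i from 0.0850 ± 0.057 to 7.32 ± 1.63.

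Around these genes, other parts of the pathway were counted in lists. LXR partners and co-regulators, of which 14 of 15 could be tested, had a median log2 fold change near 0 with IFNγ + LPS (-0.06, against 0.01 for all genes), with 6 higher and 5 lower, beside 37.1% and 36.2% of all genes tested. Rxra, the retinoid X receptor that pairs with LXR, fell by 0.87 with IFNγ + LPS and rose with DGAT1i in both states (0.54 in IFNγ + LPS, adjusted p = 1.05e-06, and 0.53 in M0, adjusted p = 2.96e-09). The co-repressor Ncor1 rose by 0.24 in M0 with DGAT1i, and the co-activator subunit Med1 fell by 0.30 with DGAT1i in IFNγ + LPS. In the latter comparison 2 of the 14 were higher and 1 lower (13.5% and 16.3% of all genes), and in M0 2 were higher and 2 lower (11% and 13.4% of all genes).

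Other LXR target genes mostly fell with IFNγ + LPS. Of 20 genes 12 could be tested, 10 were lower and 1 higher, with a median of -1.03, beside 36.2% of all genes called lower and 37.1% higher. The fatty acid synthase Fasn (-2.74) and the desaturase Fads1 (-2.19) were among the lower, and Mertk, a receptor for apoptotic cells, was the gene that rose (2.69). With DGAT1i in IFNγ + LPS the list had 2 higher, 1 lower and 9 not past (13.5% of all genes were higher and 16.3% lower), with the desaturase Scd2 at 1.31 (adjusted p = 6.77e-16), Arl4c at 0.59 and the lipoprotein lipase Lpl at -0.30. With DGAT1i in M0 it had 5 higher and 4 lower (11% and 13.4% of all genes), among them Mertk at 0.58, Smpdl3a at 0.54, Fasn at -0.31 and Srebf1, the lipogenic transcription factor, at -0.30.

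Among oxysterol and desmosterol genes, 6 of 11 could be tested, and with IFNγ + LPS 5 were lower and 1 higher, beside 36.2% and 37.1% of all genes. Gpr183, the receptor for a dihydroxylated product of the Ch25h pathway, fell by 6.89 on the log2 scale (adjusted p = 9.98e-33). It had 2, 1 and 2 reads in the IFNγ + LPS libraries, so the size of this fall is uncertain. Hsd3b7, which acts on the sterol ring, rose by 1.02. With DGAT1i, Hsd3b7 rose in IFNγ + LPS (0.64, adjusted p = 0.00832), and Gpr183 (-0.62) fell in M0. The Hsd3b7 call rested on 30 to 68 reads in a library. It was lost with DESeq2 and without IFNγ + LPS replicate 1 or 2.

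Genes that move cholesterol inside the cell or esterify it were split, with 4 higher and 6 lower of 14 tested with IFNγ + LPS (37.1% and 36.2% of all genes). The mitochondrial protein Tspo (3.25) and the lysosomal sterol carrier Npc2 (1.53) rose. The carrier Stard4 (-4.07, with 10 to 14 reads in an IFNγ + LPS library) and the lipoprotein receptor Scarb1 (-1.78) fell. With DGAT1i 7 were higher and 2 lower in IFNγ + LPS, with a median of 0.17 against -0.01 for all genes, of which 13.5% were called higher and 16.3% lower. In M0 4 were higher and 1 lower, beside 11% and 13.4% of all genes. Nceh1, a cholesterol ester hydrolase, rose in both (0.37 and 0.40). Abca7 rose in IFNγ + LPS (0.44), and the lysosomal exporter Npc1 rose in M0 (0.41).

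In the list of Mylip substrates and the SREBP2 branch, 8 of 10 genes were tested. Lrp8, a lipoprotein receptor that Mylip acts on, rose by 1.30 (adjusted p = 1.29e-10) with DGAT1i in IFNγ + LPS. Sqle (-3.67, with 13 to 21 reads in an IFNγ + LPS library) and Srebf2 (-1.64) fell with IFNγ + LPS. In that comparison 5 genes were lower and 2 higher (36.2% and 37.1% of all genes). With DGAT1i, 3 were higher and 3 lower in IFNγ + LPS (13.5% and 16.3% of all genes), and 2 higher and 1 lower in M0 (11% and 13.4%), with Insig1, which holds SREBP in the endoplasmic reticulum, lower in both (-0.44 and -0.45).

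**Figure D4:**
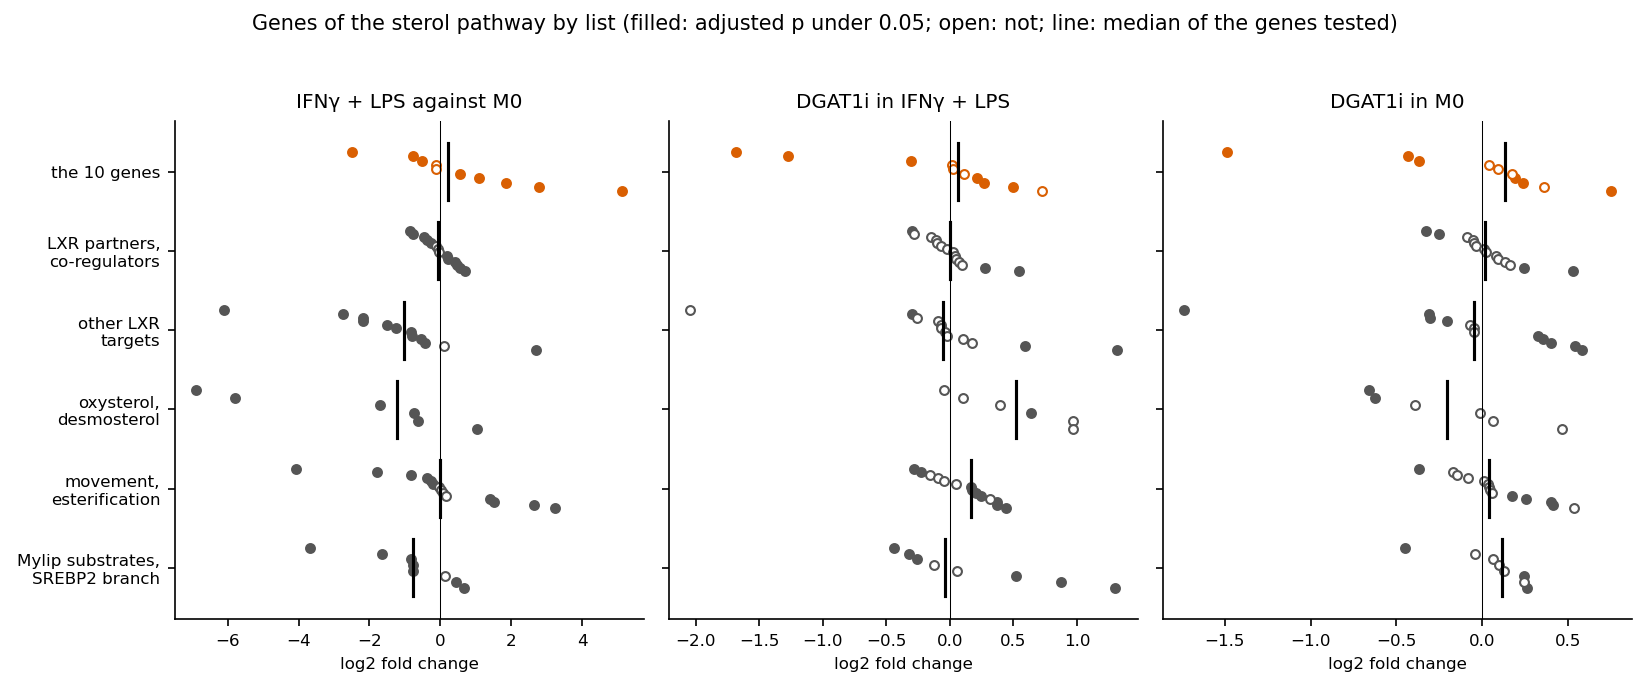
log2 fold changes (horizontal axis) of the 10 genes (orange) and of 5 lists of neighbouring sterol genes (grey) in 3 comparisons; filled points passed the test at an adjusted p under 0.05 and the black line is the median of the genes tested. Other LXR targets lie mostly left of 0 with IFNγ + LPS, with a median of -1.03, and near 0 with DGAT1i in IFNγ + LPS.

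For 3 of the genes the most alike genes over the 12 libraries were looked up by the Pearson correlation of log2 CPM, among genes with a mean log2 CPM of at least 4. The 12 libraries fall into 4 groups of shared treatment, so the value describes the shape over the groups. Abca1 was most like the cyclin-dependent kinase gene Cdk6 (r = 0.965) and the histone H4 genes Hist1h4c (0.964) and Hist1h4d (0.959), whose near-identical copies make their counts uncertain, and 5 genes were over 0.95. Apoe was most like Aph1c (0.983), Adipor1 (0.979) and Atp6v0d2 (0.974), with 73 genes over 0.95. Ch25h was most like Ppt1 (0.993), Fam49a (0.991) and Slc39a1 (0.989), with 566 genes over 0.95.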

How the data were processed

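Macrophage mRNA was sequenced in 12 libraries, which the labels put into 4 groups of 3. The authors deposited raw read counts per gene, without normalization, for libraries of 4996014 to 6621671 reads. The submitters' processing notes name GRCm38 and DESeq2. No source used here gives the aligner, the counter or its strand setting, and the labels and the methods name different library kits (NEBNext and TruSeq stranded).

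Identifiers were matched without version to GENCODE release M21 on GRCm38 (47310 of 47937), which gave symbols, positions and exon lengths. edgeR 4.0.16 in R 4.3.3 was run on the counts: filterByExpr kept 11760 genes, scaling was by TMM, and a robust glmQLFit model with a mean for each group took in the 12 libraries together. Contrasts were tested with the quasi-likelihood test, Benjamini-Hochberg adjusted over all genes tested, at an adjusted p under 0.05. The common biological coefficient of variation was 0.0507. Intervals are 95%. Levels between genes are CPM per kb of exon. In simulated counts for 11760 genes, 83% of genes changed by 1 on the log2 scale were found for DGAT1i in IFNγ + LPS, 86% for DGAT1i in M0, 92% for IFNγ + LPS against M0 and 78% for the difference between the DGAT1i responses. Each simulation changed 100 genes by 1 and 100 by 2 on the log2 scale, and all other genes had the same mean in every group. Between 7 and 15 unchanged genes were called. Far more genes were called in the data, so these shares do not give the power of the tests above. Promoters came from RefSeq on GRCm38.p6.

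The genes and lists were chosen with earlier results of these data known. Text names the 10 genes, in each other list up to 2 of the largest and 2 of the smallest log2 fold changes that passed with a mean log2 CPM of at least 2, and the 3 genes most like Abca1, Apoe and Ch25h. Replicate numbers recur in all groups. Deviations of same-numbered libraries had r from -0.02 to 0.07 over 18 pairs, against -0.06 to 0.04 over 36 pairs with other numbers. These low values do not settle whether libraries were paired. The main fit used no block, and a block was an alternative. Alternatives were RLE size factors, library totals alone, no filter, a minimum mean CPM of 1, DESeq2 1.42.0, only the 6 libraries compared, a replicate block, each library left out, the libraries described with another compound number left out, and transcript length. Results of some genes are not reported here.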

Additional observations from a re-analysis of the deposited data

Results flagged for a closer look

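For 6 of the 10 genes the response to DGAT1i differed between IFNγ + LPS and M0 in the test of the difference itself (response in IFNγ + LPS minus response in M0, log2 scale, edgeR, adjusted over all genes tested). Nr1h3 differed by -1.63, with 0.36 in M0 and -1.28 in IFNγ + LPS. Abca1 differed by 0.58, having fallen in M0 (-0.37) and risen in IFNγ + LPS (0.21). Cyp27a1 differed by 1.16, with 77 to 89 reads in M0 with DGAT1i and 16 to 27 reads in IFNγ + LPS with DGAT1i. Mylip differed by -0.48, with a rise in both states (0.75 and 0.27). Abcg1 differed by -0.35, with 0.04 in M0 and -0.31 in IFNγ + LPS. Pltp differed by 0.31, with 0.19 in M0 and 0.50 in IFNγ + LPS. The call of the Pltp difference was lost in 6 of the 12 refits that left out a library, and that of Cyp27a1 in 1. Neutrophil markers differed in the same direction in all 4 genes tested (median 2.44), and their part in these values was not tested.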

How the results depend on the processing

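Of 990 values of the 10 genes under alternatives, 908 kept their direction and side of the threshold, 43 lost the call, 20 gained it and 19 changed sign. Pltp accounts for 26 of the lost and 8 of the gained calls. With totals alone, Pltp with IFNγ + LPS under DGAT1i turned from a higher to a lower call (0.17 to -0.25), Mylip there went to -0.35 and was called lower, and Abcg1 with DGAT1i in M0 went to -0.015. The other changes of sign were of values that did not pass: with no filter, Nr1h2 (-0.023) and Apoe (-0.014) with DGAT1i in IFNγ + LPS and the Lpcat3 difference (-0.018); and without the libraries described with another compound number, Lpcat3 with DGAT1i in M0 (-0.081) and with IFNγ + LPS under DGAT1i (0.074). Leaving out each library in turn gave -0.025 to 0.097 for Abcg1 with DGAT1i in M0, -0.057 to 0.083 for Nr1h2 and -0.044 to 0.071 for Apoe with DGAT1i in IFNγ + LPS, -0.19 to 0.016 for Lpcat3 with IFNγ + LPS under DGAT1i, and -0.080 to 0.13 for the Lpcat3 and -0.68 to 0.19 for the Ch25h difference. The count of the 10 genes called with DGAT1i in M0 was 3 to 6 in these refits, and 3 without the libraries described with another compound number. Nr1h3 stood at 1.03 of Nr1h2 in IFNγ + LPS with the longest transcript, against 1.36. Among the lists, the oxysterol and desmosterol count moved in 8 of 99 alternatives: from 1 called to 0 with DGAT1i in IFNγ + LPS (DESeq2, without IFNγ + LPS replicate 1 or 2) and from 0 to 1 for the difference. Without the libraries described with another compound number, the partners (4 to 2) and the Mylip list (3 to 1) with DGAT1i in M0, and cholesterol movement for the difference (5 to 3), moved too. The cause of these moves was not tested. With totals alone the share of higher calls among all genes went from 50.6% to 25% for IFNγ + LPS, from 50% to 25.5% under DGAT1i, from 45.2% to 29.7% for DGAT1i in M0 and from 46.9% to 58.2% for the difference, and without the libraries described with another compound number it was 57.7% for the difference. With the replicate block, 3 calls were gained: Pltp with IFNγ + LPS (-0.13, adjusted p = 0.0229), Nr1h3 with DGAT1i in M0 (0.35, adjusted p = 0.0104) and the Apoe difference (-0.22, adjusted p = 0.0309), and all genes called with DGAT1i in M0 went from 2869 to 2959. Depth limits Ch25h in resting cells (1 to 16 reads) and Cyp27a1 in stimulated cells (11 to 27 reads).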
